A study of Homo sapiens with 12 samples.

Results

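The genes described here are 40 genes of glucose breakdown and of the low-oxygen response, chosen by symbol: 4 glucose and lactate transporters, 17 glycolytic enzymes, 6 regulators of glycolytic flux, 4 genes of the hypoxia-inducible factor (HIF) system and 9 other hypoxia targets. All 40 were found in the 16760 genes of a compound experiment and in the 17442 genes of an siRNA experiment. Both used HCC827 and NCI-H1975, permanent cell lines grown from human non-small cell lung cancers, each with an EGFR mutation. For the compound experiment the lines were given DMSO (the vehicle), 2.5 µM or 5 µM of 18E, with 24 h stated for 18E. 18E is a code name, and the series title speaks of a small molecule against LIC1, an alias of DYNC1LI1, a light intermediate chain of the dynein motor. For the siRNA experiment they were given siDYN-1, siDYN-2 or a control siRNA (siCON), with 48 h stated for siDYN and no target named in the labels. Each combination of line and treatment gave a single library (12 in total), and the lines stand as the replicates (n = 2 lines). The labels mention no repeat culture, so a p-value here reflects how far the lines and siRNAs disagree, part of which may be technical. In the test of the difference between lines with 18E, it reflects how far the doses differ within a line.

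Glycolysis splits glucose into pyruvate, and lactate dehydrogenase turns pyruvate into lactate, which monocarboxylate transporters carry out of the cell. HIF1A and EPAS1 encode the oxygen-sensitive subunits HIF-1α and HIF-2α. Prolyl hydroxylases (the EGLN genes) mark these subunits for destruction when oxygen is present. In low oxygen the subunits persist, bind the letters ACGTG or GCGTG in regulatory DNA and switch on many glycolytic genes. HIF is controlled largely at the level of its protein, which was not measured here.

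Values are FPKM (fragments scaled by transcript length and library size), which can be compared between genes. Changes are differences of log2(FPKM + 1) between a treated library and the control of its own line and table, so the change of a low gene is understated. Total FPKM was 486409 to 685680 per library and read depth is unknown. DYNC1LI1 was at 2.42 and 1.22 FPKM with siDYN-1 and siDYN-2 in HCC827, against 16.28 FPKM with siCON, and at 5.1 and 3.04 FPKM in NCI-H1975, against 23.73 FPKM. Of 7 markers of lung epithelial cells, the lowest was NKX2-1 at 7.14 FPKM in its lowest library, and the markers of blood, vessel and stromal cells in both tables stayed at or below 1.47 FPKM except CD14, at up to 10.65 FPKM. Of the 40 members, 39 passed the filter of 1 FPKM in 2 libraries in both tables. In bulk libraries a lower level in every cell and a smaller share of expressing cells cannot be told apart.

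The lines differed in their untreated levels, and in the same direction in both experiments for the genes named here. PGK1, phosphoglycerate kinase, was at 834 FPKM in HCC827 and 344 FPKM in NCI-H1975 under DMSO, and at 1782 and 438 FPKM with siCON. PFKFB3, which makes the activator of phosphofructokinase, was at 66.9 FPKM in HCC827 and 16.1 FPKM in NCI-H1975 under DMSO, and at 99.4 and 16.0 FPKM with siCON. ENO2 was at 51.6 FPKM in HCC827 and 8.05 FPKM in NCI-H1975 under DMSO, and at 107 and 17.5 FPKM with siCON. EGLN3 was at 35.1 FPKM in HCC827 and 8.32 FPKM in NCI-H1975 under DMSO, and at 40.4 and 11.0 FPKM with siCON. SLC2A3 (GLUT3), a glucose transporter, was at 0.07 FPKM in HCC827 and 14.1 FPKM in NCI-H1975 with DMSO, and at 0.12 and 13.4 FPKM with siCON. CA12, a carbonic anhydrase, was also near 0 in HCC827, at 0.1 FPKM with DMSO and 0.08 FPKM with siCON, against 11.1 and 6.38 FPKM in NCI-H1975. With 1 library per line in each table these levels are a description.

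With 5 µM 18E the members were mostly lower, and more so in HCC827. Over the 39 members tested, 26 were lower in both lines (66.7%, against 40.8% of all 11953 genes tested) and 5 were higher in both (12.8%, against 25.5%). The median fitted change was -0.31 over the members and -0.09 over all genes. In HCC827 20 of 39 members were lower and 5 higher by at least 0.5, beside 25.8% and 18% of all genes. In NCI-H1975 2 were lower and 2 higher, beside 13.3% and 7.68%. Members lower by at least 0.5 in both lines were LDHA and EGLN3, and 1 member, ANKRD37, was higher by that much in both. These are 2 and 1 of 39, where 7.6% of all genes were lower and 4.2% higher by the same rule, so the counts lie near the background. No member passed the test across all genes at 5 µM (limma, adjusted p under 0.05), nor at 2.5 µM. Over all genes 0.00837% passed at 5 µM and 0% at 2.5 µM. At unadjusted p under 0.05 for 5 µM there were 13 lower and 3 higher members, beside 16.8% and 10% of all genes (26.8% in all).

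Promoter windows of the 3 genes past 0.5 in both lines are shown because these members, all known as hypoxia-responsive genes, differed from DMSO in opposite directions. They run from 250 bases before to 50 bases after 1 annotated start per gene, on the strand of the gene (RefSeq, GRCh38.p14). Other starts of the same gene were not searched. The start used can lie inside the gene span of GENCODE 29, as for EGLN3 (33924231 to 34462774). The windows are at chr4:185396591-185396890 (plus strand) for ANKRD37, chr11:18394313-18394612 (plus strand) for LDHA and chr14:33951025-33951324 (minus strand) for EGLN3. Capitals mark every ACGTG or GCGTG on either strand (CACGT or CACGC as printed), and overlapping matches run together as CACGTG.
ANKRD37: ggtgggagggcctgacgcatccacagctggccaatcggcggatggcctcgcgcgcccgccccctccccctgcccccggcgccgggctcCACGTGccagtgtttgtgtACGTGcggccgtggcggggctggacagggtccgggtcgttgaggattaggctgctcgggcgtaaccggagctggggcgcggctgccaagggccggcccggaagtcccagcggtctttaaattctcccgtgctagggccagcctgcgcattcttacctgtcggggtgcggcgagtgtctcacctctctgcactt
LDHA: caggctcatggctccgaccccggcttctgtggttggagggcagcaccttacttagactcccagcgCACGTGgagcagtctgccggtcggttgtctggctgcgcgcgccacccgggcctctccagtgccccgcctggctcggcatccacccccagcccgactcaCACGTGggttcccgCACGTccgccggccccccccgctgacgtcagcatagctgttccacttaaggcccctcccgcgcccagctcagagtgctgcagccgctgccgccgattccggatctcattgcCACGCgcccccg
EGLN3: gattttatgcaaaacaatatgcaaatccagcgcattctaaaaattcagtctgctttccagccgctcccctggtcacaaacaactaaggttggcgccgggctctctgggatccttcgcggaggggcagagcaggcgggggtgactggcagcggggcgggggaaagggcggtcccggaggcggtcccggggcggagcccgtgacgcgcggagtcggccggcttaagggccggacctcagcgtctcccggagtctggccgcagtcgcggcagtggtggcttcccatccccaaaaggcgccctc
ANKRD37 had 3 matches, of which the overlapping pair begins 162 bases before the start. LDHA had 6 matches and EGLN3 had 0 in the window searched. Of 35 members with a window, 25 held at least 1 match (71.4%), beside 48.4% of 27305 windows of all genes. These are matches of letters and not sites shown to be bound.

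**Figure D1:**
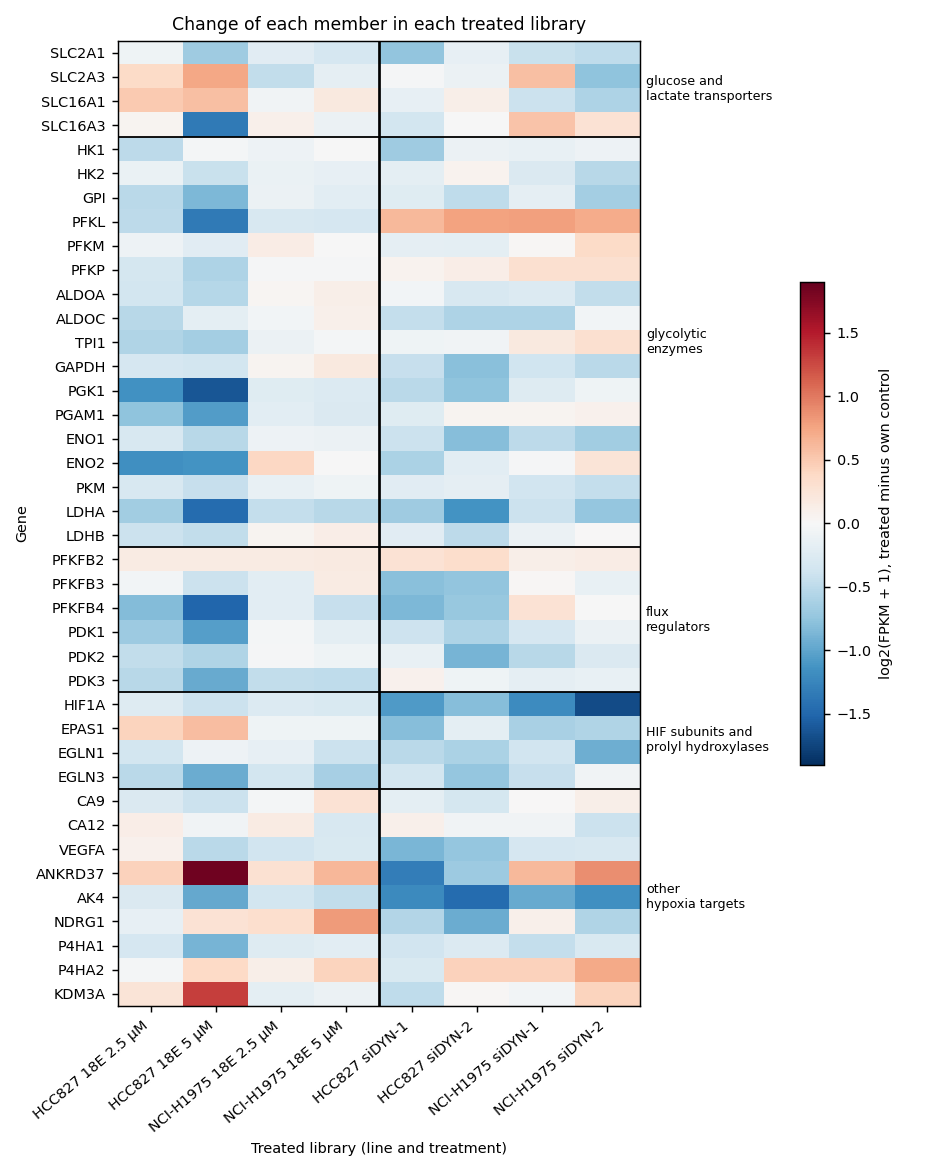
Difference of log2(FPKM + 1) between each treated library (columns) and the control of its own line and table, for all 40 genes (rows) ordered by role; blue is lower and red is higher than the control. The HCC827 columns with 18E are the bluest for the glycolytic enzymes, HIF1A is blue in all 4 siDYN columns, and PFKL is blue with 18E and red with siDYN.

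Glycolytic enzymes were lower in HCC827 at both doses. All 17 were below DMSO at 2.5 µM (median change -0.49) and at 5 µM (median -0.54), where the medians of all genes tested were 0.02 and -0.10. With quantile normalization 16 of 17 were lower at 5 µM, and with equal FPKM totals 17. In NCI-H1975 12 were lower at 2.5 µM (median -0.10) and 13 at 5 µM (median -0.04), against medians of all genes of -0.01 and -0.07. With equal FPKM totals the NCI-H1975 medians were -0.17 and -0.18, and with quantile normalization -0.15 and -0.17. At 5 µM 10 of the 17 enzymes were lower by at least 0.5 in HCC827 and 1, LDHA, in NCI-H1975, beside the shares of all genes given above. Summed over the 17 enzymes, the share of total FPKM in HCC827 was 3.45% with DMSO, 2.49% at 2.5 µM and 2.19% at 5 µM. The shares for NCI-H1975 were 2.60%, 2.35% and 2.31%. Total FPKM itself was 522573, 548289 and 575290 across the doses in NCI-H1975, and 486409, 500873 and 514263 in HCC827. A lower share thus holds a larger total as well as the change of the enzymes.

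LDHA, the lactate dehydrogenase subunit favoured in lactate-producing cells (chromosome 11, 18394388 to 18408425, GENCODE 29 on GRCh38, up to 8 exons), was at 1279 FPKM with DMSO, 809 FPKM at 2.5 µM and 466 FPKM at 5 µM in HCC827. In NCI-H1975 it was at 1530, 1114 and 1057 FPKM. LDHA was therefore lowest at 5 µM in both lines, with changes at 5 µM of -1.45 in HCC827 and -0.53 in NCI-H1975 (fitted -0.99 ± 0.23, SE, adjusted p = 0.105). LDHB, the subunit that favours pyruvate, was at 1245, 939 and 897 FPKM across the doses in HCC827 and at 574, 592 and 626 FPKM in NCI-H1975. LDHA thus made up 50.7%, 46.3% and 34.2% of the summed LDHA and LDHB FPKM in HCC827, and 72.7%, 65.3% and 62.8% in NCI-H1975.

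PGK1, which makes the first ATP of glycolysis, was at 834 FPKM with DMSO, 376 FPKM at 2.5 µM and 268 FPKM at 5 µM in HCC827. In NCI-H1975 it was at 344, 294 and 287 FPKM. The ordering by dose was shared, and the span was wider in HCC827 (fitted change at 5 µM -0.95 ± 0.32, adjusted p = 0.147). PFKL, the liver-type phosphofructokinase, was at 64.8, 45.8 and 24.8 FPKM across the doses in HCC827 and at 36.8, 29.6 and 29.4 FPKM in NCI-H1975 (-0.83 ± 0.27, adjusted p = 0.142). PGAM1, phosphoglycerate mutase, was at 454, 268 and 217 FPKM in HCC827 and at 731, 636 and 606 FPKM in NCI-H1975. ENO2, the neuronal enolase, was at 51.6, 22.5 and 22.9 FPKM in HCC827 and at 8.05, 10.9 and 7.99 FPKM in NCI-H1975, so its levels did not follow the dose in NCI-H1975.

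Other enzymes had smaller differences. GAPDH was at 5498, 4406 and 4334 FPKM across the doses in HCC827 and at 3939, 4094 and 4459 FPKM in NCI-H1975, so the lines went opposite ways. HK1 had a fitted change of -0.02 ± 0.17 at 5 µM and HK2, the inducible hexokinase, -0.29 ± 0.16 (adjusted p = 0.289). HK2 was at 24.4, 22.2 and 17.9 FPKM in HCC827 and at 29.5, 27.0 and 26.3 FPKM in NCI-H1975. The remaining enzymes (GPI, PFKM, PFKP, ALDOA, ALDOC, TPI1, ENO1, PKM) had fitted changes at 5 µM between -0.52 and -0.04. Many of these enzymes have processed pseudogenes, and reads shared with such copies could not be told apart here.

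**Figure D2:**
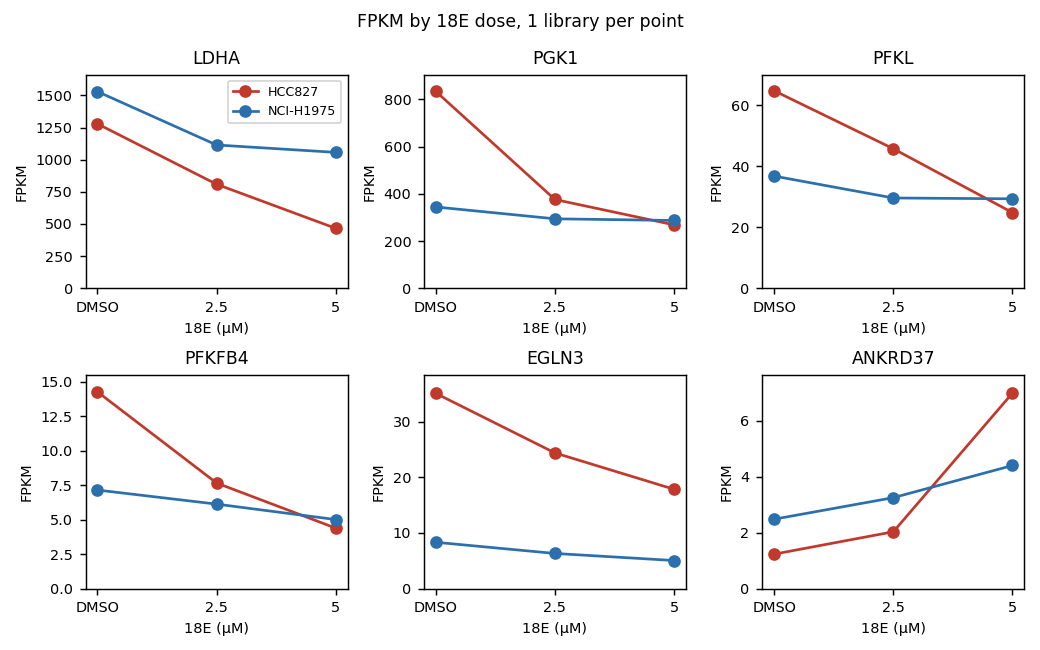
FPKM (vertical axis, from 0) by 18E dose (horizontal axis) for 6 genes, 1 library per point, with HCC827 in red and NCI-H1975 in blue. LDHA, PGK1, PFKL, PFKFB4 and EGLN3 were lowest at 5 µM in both lines, and ANKRD37 was highest at 5 µM, at 6.99 FPKM in HCC827 and 4.4 FPKM in NCI-H1975.

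Among the transporters, SLC2A1 (GLUT1), the main glucose importer of many tumour cells, was at 119 FPKM with DMSO, 113 FPKM at 2.5 µM and 74.1 FPKM at 5 µM in HCC827. It was at 65.9, 56.9 and 52.5 FPKM in NCI-H1975 (fitted change at 5 µM -0.50 ± 0.17, adjusted p = 0.153). SLC16A3 (MCT4), a lactate exporter, was at 130, 136 and 50.9 FPKM in HCC827 and at 85.4, 91.2 and 79.3 FPKM in NCI-H1975. Its lower level in HCC827 was seen at 5 µM and not at 2.5 µM. SLC16A1 (MCT1) was higher than with DMSO in HCC827, at 69.4, 98.4 and 103 FPKM, and at 49.5, 47.4 and 56.2 FPKM in NCI-H1975. SLC2A3 was near 0 in HCC827, at 0.07, 0.37 and 0.78 FPKM, and at 14.1, 9.94 and 12.4 FPKM in NCI-H1975. Its fitted change at 5 µM of 0.28 ± 0.27 thus joins lines that went opposite ways.

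Of the 6 flux regulators, 4 were lower in both lines at 5 µM, where 40.8% of all genes were. Their median fitted change was -0.47, and with 1 library left out it ran from -0.70 without NCI-H1975 with DMSO to -0.16 without HCC827 with DMSO. With equal FPKM totals 4 of the 6 were again lower in both lines, beside 49.6% of all genes. With quantile normalization 3 were, beside 36.9%, and the median in NCI-H1975 was then 0.014. PFKFB4, one of the bifunctional enzymes that set the level of fructose 2,6-bisphosphate, was at 14.3, 7.65 and 4.38 FPKM across the doses in HCC827 and at 7.14, 6.12 and 5 FPKM in NCI-H1975 (fitted change at 5 µM -0.97 ± 0.28, adjusted p = 0.122). The pyruvate dehydrogenase kinases, which hold pyruvate back from the mitochondria, had fitted changes at 5 µM of -0.62 ± 0.24 for PDK1, -0.32 ± 0.20 for PDK2 and -0.72 ± 0.19 for PDK3. All 3 were lower in both lines at both doses. PFKFB2 was at 4.43, 5.04 and 5.08 FPKM in HCC827 and at 3.77, 4.29 and 4.35 FPKM in NCI-H1975. PFKFB3 was at 66.9, 64.8 and 50.1 FPKM in HCC827 and at 16.1, 13.9 and 18.0 FPKM in NCI-H1975, with no shared order.

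The 4 HIF genes had a median change at 5 µM of -0.25 in HCC827 and -0.35 in NCI-H1975, unlike the enzymes, whose lower median was in HCC827 (the difference between these medians was not tested). At 2.5 µM the HIF medians were -0.30 in HCC827 and -0.21 in NCI-H1975, so HCC827 was then the lower line, as for the enzymes. HIF1A was at 197, 166 and 149 FPKM across the doses in HCC827 and at 104, 86.8 and 85.1 FPKM in NCI-H1975 (fitted change at 5 µM -0.35 ± 0.14, adjusted p = 0.182). EPAS1 was at 26.8, 36.4 and 40.9 FPKM in HCC827 and at 23.3, 21.9 and 22.0 FPKM in NCI-H1975, so only the HCC827 libraries were above DMSO. EGLN3, a prolyl hydroxylase that is itself a hypoxia target, was at 35.1, 24.4 and 17.9 FPKM in HCC827 and at 8.32, 6.31 and 5.04 FPKM in NCI-H1975 (-0.78 ± 0.17, adjusted p = 0.104). The fitted change of EGLN1, the main prolyl hydroxylase of most cells, was -0.26 ± 0.18.

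Other hypoxia targets were split between higher and lower. ANKRD37, an ankyrin repeat gene, was at 1.23, 2.03 and 6.99 FPKM across the doses in HCC827 and at 2.48, 3.25 and 4.4 FPKM in NCI-H1975 (fitted change at 5 µM 1.24 ± 0.32, adjusted p = 0.113). NDRG1, a stress-responsive gene, was at 104, 93.6 and 126 FPKM in HCC827 and at 46.3, 58.0 and 81.9 FPKM in NCI-H1975 (0.54 ± 0.18). KDM3A, a histone demethylase, was at 15.7, 18.8 and 40.3 FPKM in HCC827 and at 15.7, 13.7 and 14.5 FPKM in NCI-H1975, so it was above DMSO in HCC827 alone (0.60 ± 0.34). VEGFA, the angiogenic growth factor, was at 80.2, 84.8 and 56.1 FPKM in HCC827 and at 32.8, 25.3 and 26.8 FPKM in NCI-H1975 (-0.40 ± 0.20, adjusted p = 0.259). AK4, a mitochondrial adenylate kinase, had -0.72 ± 0.20, and P4HA1, a collagen prolyl hydroxylase subunit, -0.54 ± 0.21, while its relative P4HA2 had 0.40 ± 0.16. CA12 had -0.19 ± 0.18 and counted as lower in both lines. In HCC827 it was near 0, at 0.1 FPKM with DMSO and 0.05 FPKM at 5 µM. CA9, a carbonic anhydrase that HIF induces in many tumours, was near 0, at 0.54, 0.27 and 0.16 FPKM in HCC827 and at 0.19, 0.16 and 0.44 FPKM in NCI-H1975, and was not tested.

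**Figure D3:**
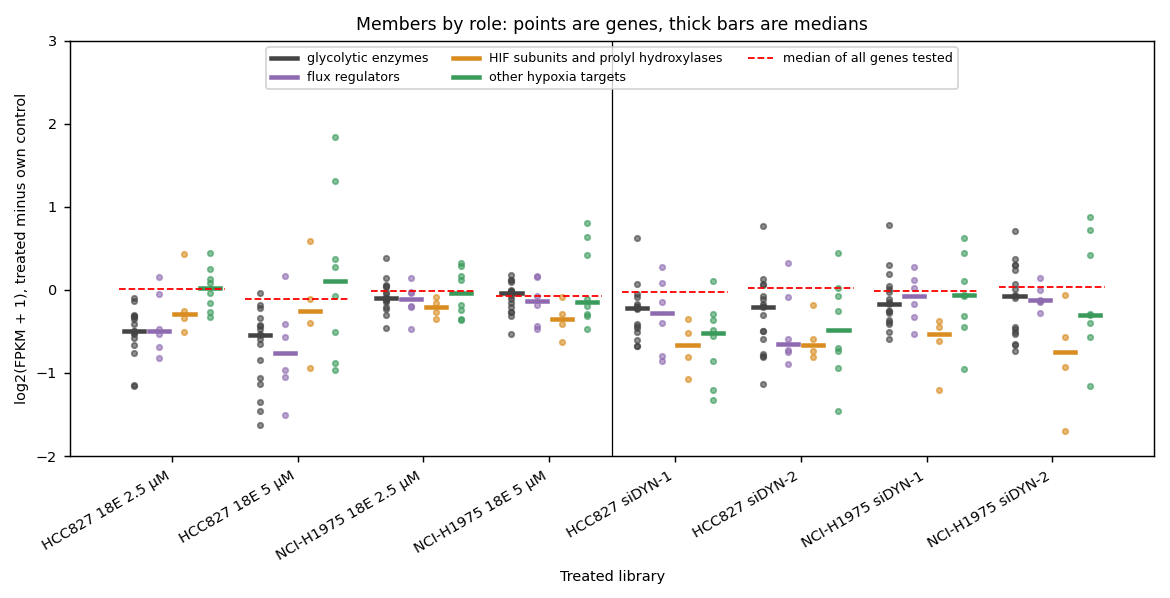
Change of each tested gene (points, log2(FPKM + 1) against the own control) in each treated library, by role, with the median of each role as a thick bar and the median of all genes tested as a dashed line. In HCC827 with 18E the glycolytic enzymes have medians of -0.49 and -0.54, and with siDYN the 4 HIF genes have medians of -0.53 to -0.75 in the 4 libraries.

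At 2.5 µM the members were again mostly lower. The median change over members in HCC827 was -0.32 at 2.5 µM and -0.51 at 5 µM, and in NCI-H1975 it was -0.11 at both doses. Of 39 members 23 were lower in both lines (59%, against 31.6% of all genes) and 4 higher (10.3%, against 32.2%), and the median fitted change was -0.20, against 0.00 over all genes. No member was past 0.5 in both lines, beside 0.619% of all genes on the lower and 1.7% on the higher side. The smallest adjusted p over the members was 0.915 and 2, EGLN3 and PDK3, both lower, had an unadjusted p under 0.05, beside 2.01% of all genes lower and 3.25% higher (5.26% in all). In HCC827 11 members were lower and 0 higher by at least 0.5, beside 4.31% and 6.53% of all genes. In NCI-H1975 0 were lower and 0 higher, beside 3.91% and 4.28%. The 2 doses share their DMSO libraries, so their changes are not independent. Between 5 and 2.5 µM, 18 members were lower and 10 higher in both lines at 5 µM, beside 44.4% and 21.3% of all genes. The smallest adjusted p of this contrast was 0.411, with 2 members, ANKRD37 and NDRG1, both higher, at an unadjusted p under 0.05, beside 3.71% of all genes higher and 8.05% lower (11.8% in all). Between these doses 0 members and 0% of all genes passed the test. By the size rule 0 members were past 0.5 in both lines, beside 1.4% of all genes higher and 1.15% lower. In HCC827 alone 8 were lower and 2 higher by that much, beside 22.3% and 14.6% of all genes, and in NCI-H1975 0 were lower and 0 higher, beside 1.95% and 2.08%.

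The lines were compared directly with an interaction term in which the doses stood in for replicates. Its ± values thus reflect how far the doses differ within a line and hold no spread of the single DMSO libraries. A gene whose level changes between the doses gets a wide ± value. With 18E, 30 of 39 members had a more negative change in HCC827 than in NCI-H1975, with a median difference of -0.27, against 0.00 over all genes. No member passed (smallest adjusted p = 0.999) and 3 had an unadjusted p under 0.05, beside 0% and 1.72% of all genes. These 3 were ENO2 (difference -1.34 ± 0.39), PGK1 (-1.15 ± 0.34) and TPI1 (-0.53 ± 0.21). The test at 5 µM depended on the NCI-H1975 libraries, and where a library is left out its lone counterpart is assumed to vary like the others. Without NCI-H1975 at 5 µM 18 members passed, 16 lower and 2 higher, beside 37.8% of all genes, and without NCI-H1975 with DMSO 3 passed, beside 3% of all genes. The 18 were led by LDHA (-1.40 ± 0.14, adjusted p = 0.00156) and ANKRD37 (1.80 ± 0.19, adjusted p = 0.00182). Without HCC827 at 5 µM or HCC827 with DMSO, 0 members passed, beside 1.45% and 0.279% of all genes. Sizes depended on the same libraries. The fitted change at 5 µM ran from -1.52 without NCI-H1975 with DMSO to -0.37 without HCC827 with DMSO for PGK1, and between -1.39 and -0.55 without the same libraries for PFKFB4. It ran from -1.40 without NCI-H1975 at 5 µM to -0.58 without HCC827 at 5 µM for LDHA, between -0.71 and -0.29 for SLC2A1, between -0.62 and -0.18 for VEGFA, between -0.42 and -0.16 for HK2, from 1.80 to 0.67 for ANKRD37 and from 1.20 to 0.0044 for KDM3A without the same libraries. EGLN3 (-0.90 to -0.66) and HIF1A (-0.41 to -0.28) kept closer to their values. Between 5 and 2.5 µM, 9 members passed without NCI-H1975 at 5 µM, led by SLC16A3 (-1.40 ± 0.14, adjusted p = 0.00287), beside 29% of all genes.

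With siDYN, HIF1A and AK4 were lower and PFKL was higher in all 4 knockdown libraries. They are the 2 members lower and the 1 member higher by at least 0.5 in every library, where 1.49% and 2.12% of all 11718 genes tested met the same rule. Of 39 members 19 were lower in all 4 libraries (48.7%, against 25.6% of all genes) and 3 higher (7.69%, against 24.9%). With equal FPKM totals 24 were lower and 2 higher, beside 33.7% and 17.2% of all genes, and with quantile normalization 20 were lower and 2 higher, beside 26.6% and 22.8%. The median fitted change was -0.30, against 0.01 over all genes. No member passed the test over both siRNAs and both lines (limma, smallest adjusted p = 0.0820), and 0% of all genes did. At unadjusted p under 0.05 there were 12 lower and 1 higher members, beside 13.4% and 12.6% of all genes (26% in all). In HCC827 14 members were lower by at least 0.5 with siDYN-1 and 16 with siDYN-2, beside 7.84% and 9.63% of all genes, and 1 was higher with each, beside 8.27% and 14.8%. In NCI-H1975 6 and 12 were lower, beside 13% and 17.6%, and 4 and 3 were higher, beside 11.4% and 19.5%.

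HIF1A (chromosome 14, 61695513 to 61748259, plus strand, up to 15 exons) was at 83.7 and 101 FPKM with siDYN-1 and siDYN-2 in HCC827, against 178 FPKM with siCON. In NCI-H1975 it was at 40.7 and 28.5 FPKM, against 95.0 FPKM. The knockdown libraries thus held 47.1% and 56.9% of the siCON level in HCC827 and 42.9% and 30.05% in NCI-H1975. In each line both lay below the single siCON library, and 25.6% of all genes were likewise lower in all 4 libraries. The fitted change of HIF1A was -1.20 ± 0.20 (limma, adjusted p = 0.0878). EPAS1 was at 10.2 and 16.3 FPKM in HCC827, against 18.5 FPKM with siCON, and at 8.51 and 8.82 FPKM in NCI-H1975, against 13.6 FPKM (-0.54 ± 0.20, adjusted p = 0.153). EGLN1 had -0.60 ± 0.18 and EGLN3 -0.40 ± 0.19. All 4 HIF genes were lower in all 4 libraries, as deposited and under both other scalings.

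AK4 was at 10.8 and 8.92 FPKM with siDYN-1 and siDYN-2 in HCC827, against 26.2 FPKM with siCON, and at 7.37 and 6.24 FPKM in NCI-H1975, against 15.2 FPKM (-1.19 ± 0.16, adjusted p = 0.0820). Its level was 34.0% to 48.6% of siCON over the 4 libraries. VEGFA was at 29.98 and 32.7 FPKM in HCC827, against 55.3 FPKM, and at 21.2 and 21.4 FPKM in NCI-H1975, against 26.6 FPKM (-0.55 ± 0.16, adjusted p = 0.110). ANKRD37 went opposite ways in the lines. It was at 1.57 and 2.97 FPKM in HCC827, against 5.42 FPKM with siCON, and at 5.39 and 6.62 FPKM in NCI-H1975, against 3.15 FPKM. P4HA2 was at 16 and 27.3 FPKM in HCC827, against 19.8 FPKM, and at 20.1 and 24.7 FPKM in NCI-H1975, against 14.6 FPKM (0.33 ± 0.24). NDRG1 was lower than siCON in 3 of 4 libraries (-0.49 ± 0.24). P4HA1 had -0.34 ± 0.13, lower in all 4, while KDM3A and CA12 had -0.03 ± 0.22 and -0.11 ± 0.16. CA9 was at 0.34 and 0.21 FPKM in HCC827, against 0.52 FPKM, and at 0.09 and 0.18 FPKM in NCI-H1975, against 0.09 FPKM.

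The glycolytic enzymes were split with siDYN. Of 17, 9 were lower and 2 higher in all 4 libraries, where 25.6% and 24.9% of all genes were, and the median fitted change was -0.26, against 0.01 over all genes. PFKL (chromosome 21, 44300051 to 44327376, plus strand, up to 25 exons) was at 83.3 and 92.2 FPKM in HCC827, against 53.8 FPKM with siCON, and at 65.9 and 62.4 FPKM in NCI-H1975, against 37.8 FPKM. All 4 knockdown libraries were above both siCON libraries (fitted change 0.72 ± 0.12, adjusted p = 0.0879). PFKL made up 33.6% and 35.3% of the summed FPKM of the 3 phosphofructokinase genes in HCC827, against 24.6% with siCON, and 19.4% and 17.9% in NCI-H1975, against 14.1%. With 5 µM 18E, measured against other control libraries, the share was 22.3% in HCC827, against 34.9% with DMSO, and 13.1% in NCI-H1975, against 15.7%. PFKP, the platelet-type enzyme, was the other glycolytic gene above siCON in all 4 libraries (0.20 ± 0.12), although with equal FPKM totals or quantile normalization only 1 of the 17 stayed above in all 4.

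LDHA was at 1139 and 828 FPKM with siDYN-1 and siDYN-2 in HCC827, against 1811 FPKM with siCON, and at 1060 and 851 FPKM in NCI-H1975, against 1413 FPKM (-0.74 ± 0.18, adjusted p = 0.101). It was lower with siDYN-2 than with siDYN-1 in both lines. ENO1, the main enolase, was at 3486 and 2650 FPKM in HCC827, against 4624 FPKM, and at 2702 and 2422 FPKM in NCI-H1975, against 3834 FPKM (-0.59 ± 0.14). GAPDH had -0.53 ± 0.14, PGK1 -0.40 ± 0.16 and PKM, pyruvate kinase, -0.30 ± 0.11, each lower in all 4 libraries. TPI1 and PGAM1, by contrast, had fitted changes of 0.08 ± 0.12 and -0.01 ± 0.13. The other enzymes (HK1, GPI, PFKM, ALDOA, ALDOC, ENO2, LDHB) had fitted changes between -0.42 and 0.01. The 17 enzymes summed to 3.96% and 3.49% of total FPKM in HCC827, against 5.38% with siCON, and to 2.06% and 1.89% in NCI-H1975, against 2.76%. Total FPKM was above siCON in each knockdown library, which also lowers these shares.

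**Figure D4:**
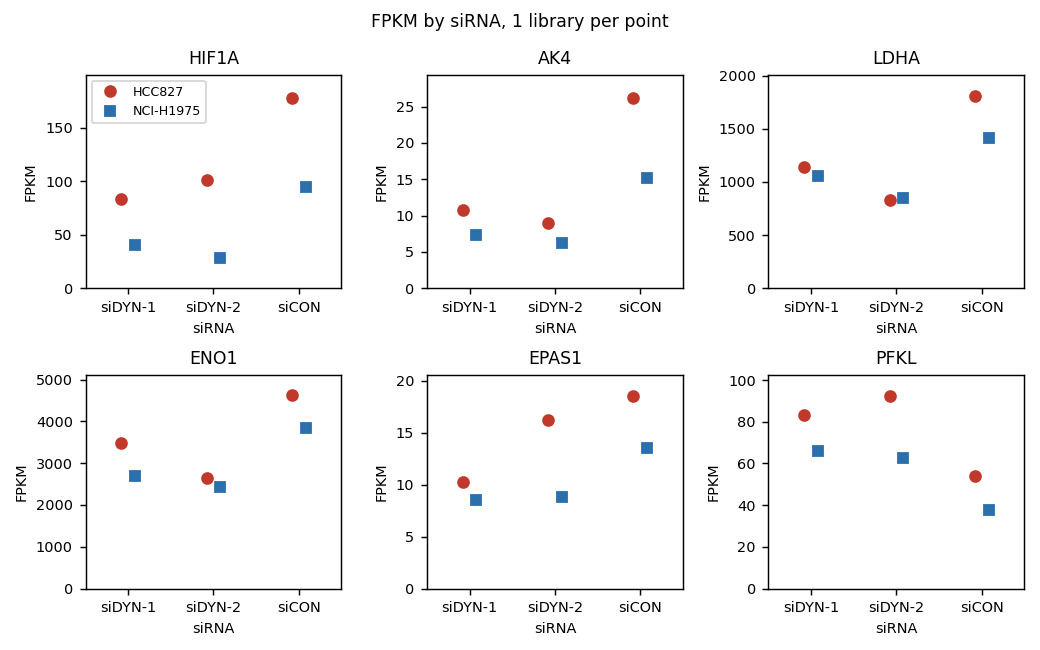
FPKM (vertical axis, from 0) by siRNA for 6 genes, 1 library per point, with HCC827 as red circles and NCI-H1975 as blue squares. HIF1A, AK4, LDHA, ENO1 and EPAS1 were below siCON with both siDYN siRNAs in both lines, and PFKL was above it, at 62.4 to 92.2 FPKM against 37.8 and 53.8 FPKM.

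Transporters and flux regulators were mixed. SLC2A1 was at 85.4 and 129 FPKM with siDYN-1 and siDYN-2 in HCC827, against 144 FPKM with siCON, and at 54.4 and 52.0 FPKM in NCI-H1975, against 73.2 FPKM (-0.45 ± 0.18, adjusted p = 0.177). HK2 was at 16.0 and 19.3 FPKM in HCC827, against 18.4 FPKM, and at 20.7 and 17.2 FPKM in NCI-H1975, against 25.2 FPKM (-0.23 ± 0.16). PFKFB2 was at 2.22 and 2.34 FPKM in HCC827, against 1.66 FPKM, and at 1.9 and 1.95 FPKM in NCI-H1975, against 1.68 FPKM (0.21 ± 0.14). PFKFB4 was at 22.7 and 25.0 FPKM in HCC827, against 41.9 FPKM, and at 11.2 and 9.03 FPKM in NCI-H1975, against 9.04 FPKM. The pyruvate dehydrogenase kinases had fitted changes of -0.36 ± 0.15 for PDK1, -0.46 ± 0.23 for PDK2 and -0.08 ± 0.14 for PDK3, and PFKFB3 had -0.42 ± 0.19. The other transporters (SLC2A3, SLC16A1, SLC16A3) had fitted changes between -0.26 and 0.11. For SLC2A3 in NCI-H1975 the siRNAs disagreed, with changes of 0.57 with siDYN-1 and -0.77 with siDYN-2. In the test of the difference between lines the siRNAs stood in for replicates. Its ± values thus reflect how far the siRNAs disagree and hold no spread of the single siCON libraries. With siDYN, 25 of 39 members had a more negative change in HCC827 than in NCI-H1975, with a median difference of -0.20, against 0.01 over all genes. No member passed (limma, smallest adjusted p = 0.99992) and 2 had an unadjusted p under 0.05, beside 0% and 1.52% of all genes. These 2 were ANKRD37 (difference -1.76 ± 0.46) and PFKFB4 (-0.93 ± 0.33).

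The siDYN test depended on whether the siRNAs were pooled. With siDYN-1 alone, 9 members passed, 8 lower and 1 higher, beside 13% of all genes. They were HIF1A, AK4, EPAS1, LDHA, SLC2A1, ALDOC, ENO1 and GAPDH on the lower and PFKL on the higher side. With siDYN-2 alone, 9 passed, again 8 lower and 1 higher, beside 18.1% of all genes. They were AK4, LDHA, HIF1A, ENO1, GAPDH, NDRG1, GPI and EGLN1 on the lower and PFKL on the higher side. The adjusted p was 0.00927 and 0.00386 for HIF1A, 0.0122 and 0.00276 for AK4, 0.0330 and 0.00282 for LDHA and 0.0218 and 0.0124 for PFKL with siDYN-1 and siDYN-2. In these fits the residual is the disagreement of 2 lines alone, and both use the same siCON libraries. Without HCC827 with siDYN-1, 1 member passed, AK4 (-1.23 ± 0.19, adjusted p = 0.0394), beside 1.12% of all genes.

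**Figure D5:**
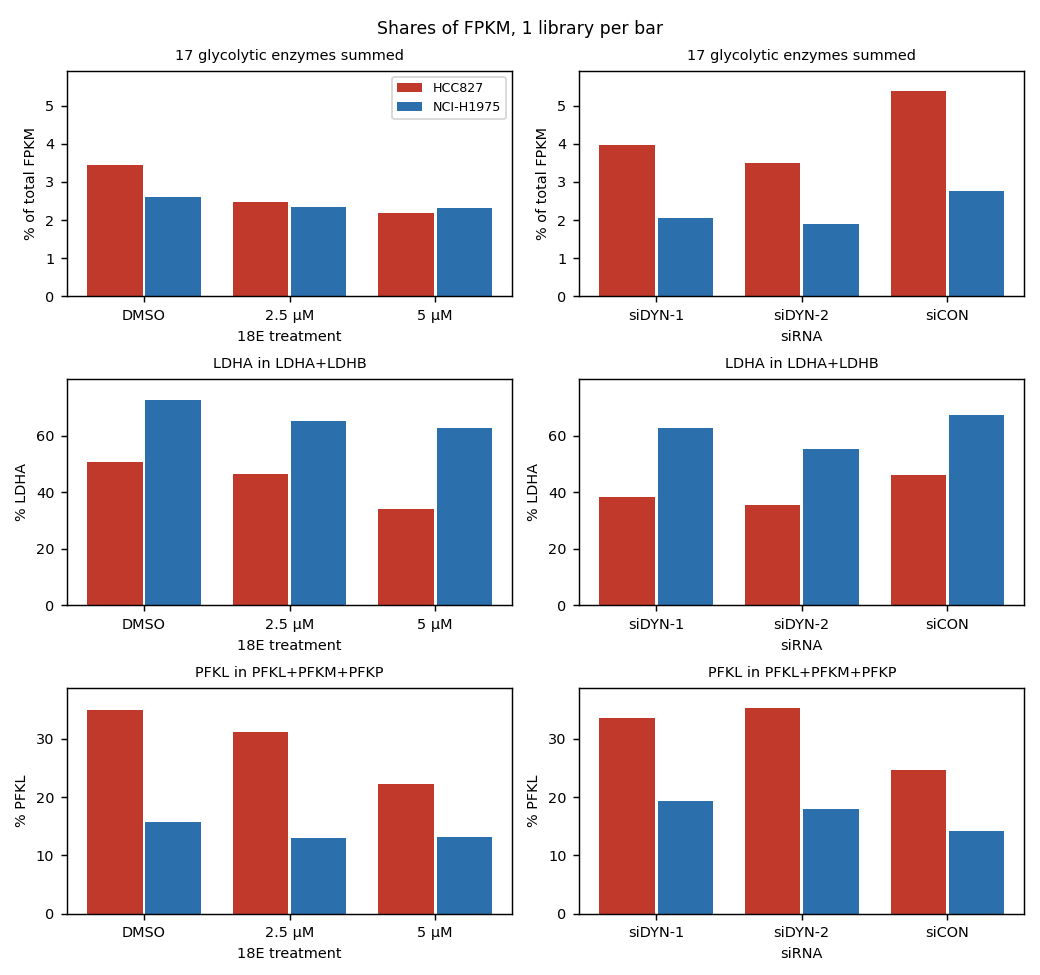
Shares of FPKM in each library (bars, 1 library each, from 0), with HCC827 in red and NCI-H1975 in blue: the 17 glycolytic enzymes as a percentage of total FPKM (top), LDHA of LDHA and LDHB (middle) and PFKL of the 3 phosphofructokinase genes (bottom). The enzyme share of total FPKM and the LDHA share were below the control in all 8 treated libraries. Total FPKM was above the control in all 8, which also lowers the enzyme share. The PFKL share was below DMSO with 18E and above siCON with siDYN.

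Other genes of the same pathways were described from a list apart from the 40. In the compound experiment at 5 µM, 1 of all 11953 genes tested passed the test (0.00837%). This was ADM, 1 of 17 further hypoxia targets, which encodes adrenomedullin. It rose with 5 µM 18E (3.28 ± 0.19, adjusted p = 0.0482), with 25.6, 35.6 and 292 FPKM across the doses in HCC827 and 0.37, 1.11 and 10.8 FPKM in NCI-H1975. Without the line term 0 genes passed. In the same list ANGPTL4, a secreted regulator of lipoprotein lipase, was higher by 1.32 in HCC827 and 2.32 in NCI-H1975, and BNIP3L, a mitophagy receptor, was lower by at least 0.5 in both lines (-0.61 ± 0.16). Among 14 further glycolysis genes HKDC1, a hexokinase, was at 26.0, 39.4 and 43.8 FPKM in HCC827 across the doses and at 4.56, 14.6 and 14.2 FPKM in NCI-H1975. ENO3, the muscle enolase, was at 1.14, 3.74 and 6.3 FPKM in HCC827 and at 0.65, 1.35 and 1.66 FPKM in NCI-H1975. Further genes higher by at least 0.5 in both lines at 5 µM included MXI1, TMEM45A, ELOC and ARRDC4, and FBP1 was lower by as much. FBP1 was near 0 in HCC827, at 0.89 FPKM with DMSO and 0.11 FPKM at 5 µM. TMEM45A was low in both lines, at 0.31 and 1.33 FPKM in HCC827 and 0.92 and 1.86 FPKM in NCI-H1975. The further glycolysis genes had a median fitted change of 0.01 at 5 µM, the 10 genes of pyruvate entry into mitochondria -0.26 and the 7 pentose phosphate genes -0.03, against -0.09 over all genes.

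With siDYN, none of these further genes passed the test over both siRNAs (limma, smallest adjusted p = 0.0876). PCK2, the mitochondrial phosphoenolpyruvate carboxykinase, was at 11.0 and 14.7 FPKM with siDYN-1 and siDYN-2 in HCC827, against 5.25 FPKM with siCON, and at 12.7 and 11.1 FPKM in NCI-H1975, against 6.07 FPKM (1.00 ± 0.17). PGD, an enzyme of the pentose phosphate pathway, was at 61.8 and 33.4 FPKM in HCC827, against 99.2 FPKM, and at 59.3 and 35.1 FPKM in NCI-H1975, against 116 FPKM (-1.21 ± 0.30). BNIP3L and PLOD2, a collagen lysyl hydroxylase, were lower by at least 0.5 in all 4 libraries (-0.85 ± 0.13 and -0.81 ± 0.17). Over the lists, 7 of 14 further glycolysis genes were higher and 0 lower in all 4 libraries, and 6 of 18 further hypoxia targets were lower and 1 higher. Over all genes 24.9% were higher and 25.6% lower in all 4. The share of hypoxia targets lower (33.3%) lay near that background, and the share higher (5.56%) was below it. By the size rule 2 of the 18 hypoxia targets were lower and 0 higher, beside 1.49% and 2.12% of all genes. At unadjusted p under 0.05 the further glycolysis list had 4 higher and the hypoxia list 4 lower genes, beside 12.6% of all genes higher and 13.4% lower.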

How the data were processed

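RNA was extracted with Trizol and TruSeq libraries (Illumina) were sequenced, per the labels' protocols. The values are FPKM as the authors deposited them, in 1 table per experiment, per the file headers. The submitters' processing notes list Bowtie 0.12.2, GRCh38.p12 and mm8, a mouse build, and give no role for any. Which tool and annotation gave the FPKM, and whether strand was used, is not given in the sources used here. Incomplete lines (40 and 20) were left out. Read depth was not estimated from the values and is unknown.

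Genes reaching 1 FPKM in 2 or more of 6 libraries were tested on log2(FPKM + 1), each table separately, with limma 3.58.1 in R 4.3.3 (two-sided, variance trend, Benjamini-Hochberg adjustment over all genes tested, threshold 0.05). The cell line was the block, since libraries of a pair come from the same line, with 2 residual degrees of freedom for 18E and 3 for siDYN. The script was tested on simulated data. The size rule was a change of at least 0.5 in 1 direction in every treated library. The members, roles and lists were chosen with earlier results of these data known. Values by library are given for members past the test or the size rule, the 3 highest and lowest in each comparison, the 2 with the smallest p of each line difference, and HIF1A, EPAS1, SLC2A1, HK2, LDHA, VEGFA and CA9; other named genes were chosen after their values were seen. Alternatives were a pseudocount of 0.1, no filter, equal FPKM totals, quantile normalization, a constant prior variance, no line term, a size threshold of 1, single siRNAs and each library left out.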

Additional observations from a re-analysis of the deposited data

How the results depend on the processing

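The fitted change of each gene followed by name kept its direction with a pseudocount of 0.1, no filter, equal FPKM totals, quantile normalization, a constant prior variance, no line term and single siRNAs. Without the line term (no replicate block), 0 members passed in any comparison, as with it. Equal FPKM totals moved the median of all genes by -0.11 in NCI-H1975 at 5 µM and by -0.10 and -0.12 in NCI-H1975 with siDYN-1 and siDYN-2, and by less in other libraries. Members lower past the size rule were then 5 at 5 µM, 2 at 2.5 µM and 5 with siDYN (beside 11.6%, 1.04% and 3.18% of all genes), and 1, 1 and 4 with quantile normalization (5.38%, 0.678% and 1.5%); at a size threshold of 1, 0 were past it in each direction, where 0.502%, 0.00837% and 0.0341% of all genes were lower and 1.07%, 0.251% and 0.23% higher. Medians moved with equal totals to -0.19 for transporters and -0.41 for HIF genes at 5 µM, to -0.014 for other hypoxia targets at 2.5 µM, and to -0.41 for all members, -0.37 for enzymes and -0.68 for HIF genes with siDYN, where quantile normalization gave -0.33 for enzymes. Single siRNAs gave 9 members past the test each, and 7 lower past the size rule with siDYN-2 (6% of all genes).

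Leaving out 1 library gave 0 to 18 members past the test at 5 µM (3 without NCI-H1975 with DMSO), 0 to 9 between doses and 0 to 1 with siDYN. Past the size rule 2 to 20 were lower and 1 to 5 higher at 5 µM (7.64% to 25.9% and 4.17% to 18.1% of all genes), 0 to 11 lower at 2.5 µM (0.623% to 4.33%), and 2 to 10 lower and 1 to 2 higher with siDYN (1.69% to 9.15% and 2.68% to 8.05%), since fewer libraries then had to meet the rule. Medians at 5 µM ran from -0.45 to -0.15 for all members, -0.47 to -0.087 for enzymes, -0.70 to -0.16 for flux regulators, -0.28 to 0.028 for transporters (-0.039 without HCC827 at 5 µM), -0.37 to -0.23 for HIF genes and -0.085 to 0.17 for other hypoxia targets. At 2.5 µM they ran from -0.36 to -0.074 for all members, -0.44 to -0.056 for enzymes, -0.56 to -0.017 for flux regulators, -0.23 to 0.25 for transporters, -0.32 to -0.18 for HIF genes and -0.048 to 0.14 for other hypoxia targets (-0.022 without NCI-H1975 at 2.5 µM, -0.033 without HCC827 with DMSO). With siDYN they ran from -0.39 to -0.23 for all members, -0.35 to -0.16 for enzymes, -0.50 to -0.11 for flux regulators, -0.32 to -0.028 for transporters, -0.64 to -0.52 for HIF genes and -0.53 to -0.24 for other hypoxia targets. Among named genes VEGFA ran from -0.80 to -0.31, HK2 from -0.40 to -0.061, P4HA2 from 0.074 to 0.58 and PFKFB2 from 0.13 to 0.30 with siDYN, the ends being without the siCON libraries. At 2.5 µM PGK1 ran from -1.26 to -0.11, LDHA from -0.84 to -0.28, PFKFB4 from -0.93 to -0.084, HK2 from -0.19 to -0.056 and ANKRD37 from 0.025 to 0.71, the ends being without the DMSO libraries. Signs turned for EPAS1 at 5 µM (-0.041) and 2.5 µM (-0.13) and SLC16A1 at 2.5 µM (-0.018) without HCC827 with DMSO, and for SLC2A1 (0.0094) and VEGFA (0.14) at 2.5 µM without NCI-H1975 at 2.5 µM; the cause was not tested. Read depth is unknown, so counting error could not be set beside any value.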
